A study of Mus musculus with 1037 samples.

Results

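The collagen gene family was described in single cells of the mouse hair follicle. Its members were the genes of the count table whose Ensembl identifier maps to a protein-coding mouse symbol of the form Col, number, a, number. Col17a1, a transmembrane collagen of the hemidesmosome, matches the pattern but was set aside, which left 43 of 44 such genes among 55335 genes in all.

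Collagens are secreted or membrane proteins in which 3 chains wind into a triple helix. Fibrillar collagens such as types I, III and V form the fibres of the dermis and are typical products of fibroblasts. Type IV collagen forms the network of the basement membrane, to which the outer root sheath (ORS), the outermost epithelial layer of the follicle, is attached. Type VII collagen builds the anchoring fibrils that tie this membrane to the dermis, and type XVIII is a proteoglycan collagen of basement membranes. Keratinocytes are known to make types IV, VII and XVIII themselves.

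RNA was measured by Smart-seq2, a full-length method with 1 sorted cell per well and without molecular identifiers. The wild-type mice were at late anagen (AnaVI) or in CatVI and CatVII, middle to late stages of follicle regression. Their strain is not stated for these cells. The AnaVI cells came from sorts named LOS, labelled lower ORS, and MOS and UOS, both labelled upper-middle ORS. The CatVI cells came from 6 plates named P17f, for postnatal day 17, of PhagoHFSC and NonPhagoHFSC sorted as alive or apop, and the CatVII cells from the sorts OSalive and OSapop, all labelled upper ORS. The study sorted CD34+ and Itga6+ cells that lacked Sca1 and the lineage markers CD31, CD117, CD140a and CD45, called annexin V-negative cells alive, and took the lower follicle from the dermal fraction. HFSC stands for hair follicle stem cell. The labels give no age for the AnaVI and CatVII animals.

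Several animals were pooled at each stage and none is named, so each sort is 1 sample without replicates, and stage, sort, plate and library batch cannot be told apart. No test between sorts was made. Levels are counts summed over the cells of a sort per 1000000 counts of all genes (CPM), with exact Poisson limits at 95%, and shares of cells carry exact Clopper-Pearson limits. These limits cover counting error only. A ratio beyond 2-fold was called where a gene had at least 100 counts over both sorts, and the count of called collagen genes of each comparison stands beside the percentage of all genes called in the same way.

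Of 1036 cells with counts, 463 cells of a labelled sort had 2000 or more detected genes. They comprised 39 of 93 LOS cells, 38 of 72 MOS cells, 57 of 439 P17f cells, 83.58% of the UOS cells, 80.13% of the OSalive cells and 92 OSapop cells (65.25%). In P17f, plates pl1 and pl2 (PhagoHFSC alive) gave 19 and 9 cells, pl5 (PhagoHFSC apop) 15 and pl6 (NonPhagoHFSC apop) 14. Plates pl3 and pl4 (NonPhagoHFSC alive) gave none, so P17f values mix alive and apop cells. The median cell held 108598 counts in LOS and 2182588 in OSalive, with the other sorts in between. The collagen genes took 0.1279% of all counts. Of the levels given for the 21 members described by sort, 64 rest on at least 1000 counts, and their limits lie within 6.3% of the level.

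Cells that carry markers of other cell types were counted first, because a single fibroblast can hold more collagen RNA than many keratinocytes. In 9 LOS, 5 UOS, 4 OSalive and 3 OSapop cells, 3 or more of 12 fibroblast markers reached 10 CPM, and no MOS or P17f cell did so. This rule depends on depth, since a single count passes 10 CPM in a shallow cell. LOS wells B5 and E11, with 3 markers each, held 33745 and 32201 counts, against 2182588 in the median OSalive cell. The summed level of the 12 fibroblast markers was 203.3 CPM in LOS, 53.7 in MOS, 68.7 in UOS, 14.3 in P17f, 80.7 in OSalive and 108.9 in OSapop. In MOS 8 of the 12 were at 0, Pdgfra (CD140a), Lum and Dpt among them, and in P17f 7 were at 0, Dcn and Lum among them. Fbln1 is a weak marker here, with transcripts in 83.2% of OSalive cells.

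Counting every list of another cell type (fibroblast, dermal papilla and sheath, endothelial, immune, melanocyte, Schwann, and muscle and pericyte), 3 or more markers of at least 1 list were found in 14 LOS, 1 MOS, 10 UOS, 4 P17f, 5 OSalive and 4 OSapop cells. This wider rule was added after the data were seen, and these cells are called set-apart cells. It uses the same minimum CPM, so the cells it sets apart also depend on depth. They held 81.6% of the collagen counts of LOS, 29.7% of those of UOS, 15.3% in OSalive, 9.02% in OSapop, 8.10% in P17f and 0.298% in MOS. Their shares of all counts were 45.8% in LOS, 16.5% in UOS and at most 5.40% elsewhere. The muscle and pericyte list is also weak here, at 116.5 CPM in the median UOS cell and 184.4 in the median OSalive cell. UOS wells C6, D5, E10, G10 and G6 were set apart by this list alone, each with 10 to 12 keratinocyte and bulge markers. The deepest LOS cell, well A11, held 26.9% of all LOS counts, with 11424 detected genes, 6 endothelial markers and no Krt14. In the 12 keratinocyte and bulge markers LOS reached 1776 CPM, against 4345 to 5691 CPM in the other sorts. In OSapop, wells C6 and C7 differed by a chi-square of 1.155 per degree of freedom over 1633 genes, against 4.611 or more between C6 and any other cell, and may be 1 library. C7 held 0.338% of the OSapop counts. A well label is not unique, since 160 labels were carried by 2 cells of a sort, and for 99 of them both cells passed. A well named here is the 1 cell with the values given. The main levels that rest on such cells are also given without the set-apart cells.

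The promoter sequences of 4 members are shown, as the 250 bases before the start of the canonical transcript on the GRCm39 genome. Col7a1 and Col8a2 were chosen because both had their highest levels in the CatVII sorts. Col3a1 stands for the interstitial genes, whose counts sat in few cells, and Col4a5 lies head to head with Col4a6. All 4 lie on the plus strand, at chr9:108782397-108782646 for Col7a1, chr4:126180309-126180558 for Col8a2, chr1:45350448-45350697 for Col3a1 and chrX:140258104-140258353 for Col4a5. Capitals mark matches to the CCAAT box (CCAAT), the GC box (GGGCGG) or the TATA box (TATAAA) on either strand.
Col7a1: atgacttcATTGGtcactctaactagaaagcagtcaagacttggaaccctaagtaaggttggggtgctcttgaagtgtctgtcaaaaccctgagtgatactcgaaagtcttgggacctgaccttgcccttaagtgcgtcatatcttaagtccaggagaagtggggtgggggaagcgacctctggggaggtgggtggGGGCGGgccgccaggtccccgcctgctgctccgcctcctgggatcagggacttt
Col8a2: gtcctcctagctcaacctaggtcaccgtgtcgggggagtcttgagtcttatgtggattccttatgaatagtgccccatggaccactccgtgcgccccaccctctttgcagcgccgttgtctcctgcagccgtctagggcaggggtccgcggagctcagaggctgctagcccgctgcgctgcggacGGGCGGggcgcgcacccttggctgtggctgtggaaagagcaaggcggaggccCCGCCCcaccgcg
Col3a1: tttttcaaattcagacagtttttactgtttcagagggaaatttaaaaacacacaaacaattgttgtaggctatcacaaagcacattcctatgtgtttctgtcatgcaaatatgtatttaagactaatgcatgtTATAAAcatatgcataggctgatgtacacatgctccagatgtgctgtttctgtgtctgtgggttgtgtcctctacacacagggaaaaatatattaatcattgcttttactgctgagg
Col4a5: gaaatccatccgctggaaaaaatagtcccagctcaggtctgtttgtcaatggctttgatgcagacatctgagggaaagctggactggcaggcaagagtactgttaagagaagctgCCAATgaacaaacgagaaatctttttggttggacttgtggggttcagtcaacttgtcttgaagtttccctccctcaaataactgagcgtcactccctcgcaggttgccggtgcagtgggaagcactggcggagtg

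The Col7a1 window held ATTGG, the reverse complement of CCAAT, and 1 GC box, with 55.6% G and C. Both matches in the Col8a2 window were GC boxes, 1 on each strand, at 66.4% G and C. The Col3a1 window was poor in G and C, at 35.2%, and held TATAAA. The Col4a5 window is part of the 1281 bases that separate the starts of Col4a6 and Col4a5 and held 1 CCAAT. Over all 43 members, GGGCGG was found in 21 windows (48.84%, against 36.34% of 21757 protein-coding genes), CCAAT in 15 (34.88% against 36.47%) and TATAAA in 6 (13.95% against 11.92%). The AP-1 motif TGANTCA was found in 0 of 43, against 6.18% of all windows. A match is a run of letters and not a mapped site.

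Many collagen genes code for their repeated triplets in short exons of related length. Of the members' 1860 inner coding exons, 25.1% were exactly 54 bases long, against 0.72% over all protein-coding genes. In the 11 fibrillar genes this share was 48.8%, and in the 6 type IV genes 4.23%. Col8a1, Col8a2 and Col10a1 had no inner coding exon. Several members are neighbours. Col4a1 and Col4a2 on chromosome 8 overlap head to head by 356 bases, and Col4a4 and Col4a3 overlap on chromosome 1. Reads from the overlapping stretch cannot be split between partners without strand. Col3a1 and Col5a2 lie tail to tail on chromosome 1 with 16713 bases between them.

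The collagen total was 2329 CPM in LOS, 1336 in MOS, 1735 in UOS, 525 in P17f, 1167 in OSalive and 1278 in OSapop. With all cells included, the composition differed more than the total. Fibrillar genes held 62.1% of the collagen counts in LOS, 25.1% in UOS, 20.2% in OSalive, 18.6% in OSapop, 5.65% in P17f and 5.37% in MOS. Without set-apart cells the LOS total was 789 CPM, the UOS total 1462 and the OSalive total 1026. The median cell had counts of 9 members in LOS and MOS, 12 in UOS and OSalive, 11 in OSapop and 5 in P17f. These numbers were not brought to equal depth per cell. Within P17f the total was 776 CPM on pl1, 594 on pl2, 248.7 on pl5 and 367 on pl6, so each of the 4 plates was below every other sort.

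**Figure D1:**
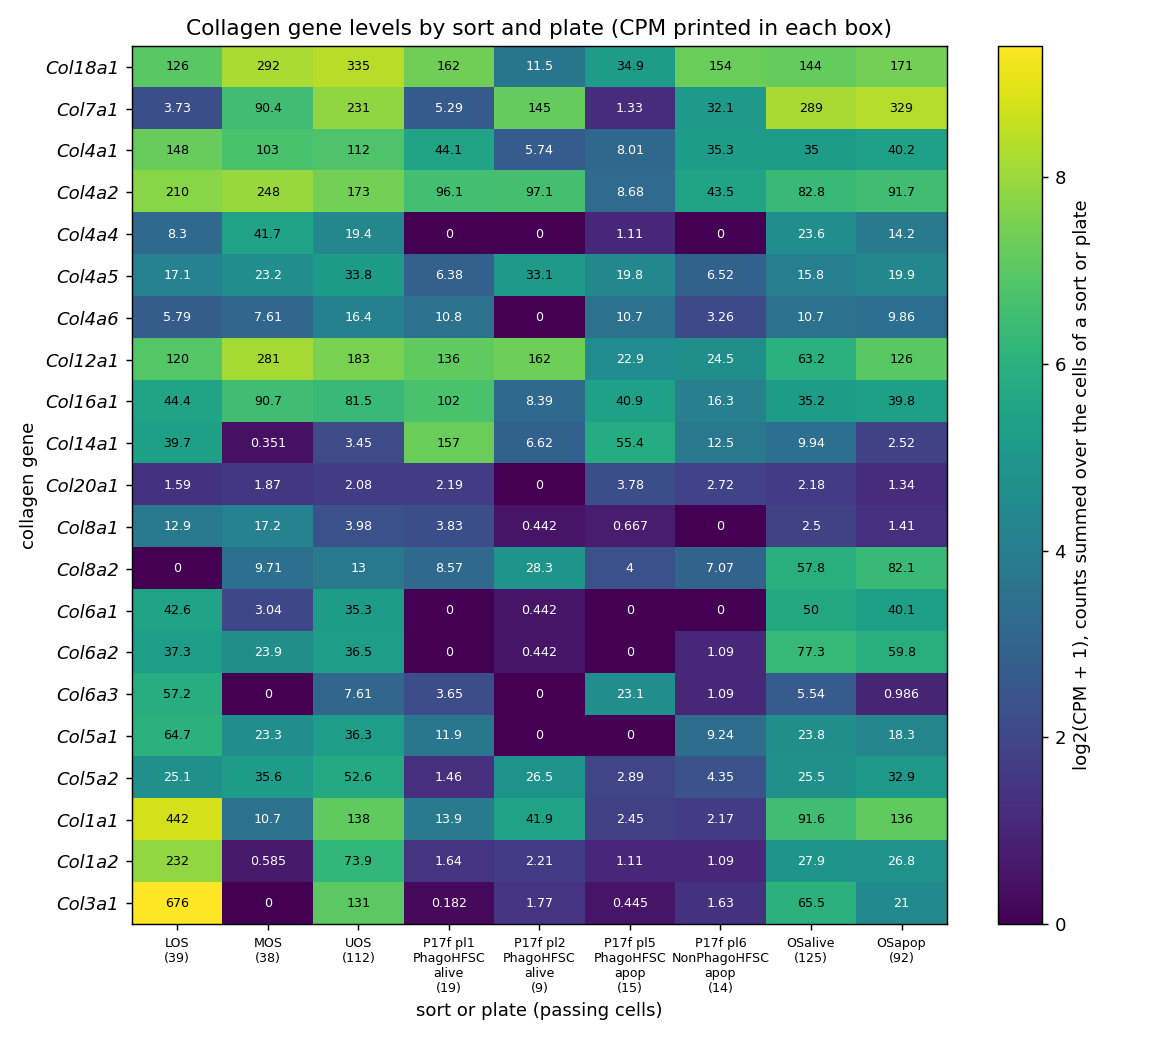
Heat map of the 21 members detected in at least 20% of the cells of a sort, with sorts and P17f plates as columns and the CPM printed in each box (colour: log2 of CPM + 1). Col18a1, Col4a2 and Col12a1 are seen in every column, Col7a1 is bright in UOS, OSalive and OSapop, and Col1a1, Col1a2 and Col3a1 are brightest in LOS.

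Per kilobase of transcript, Col18a1 was the highest member in MOS, UOS and P17f, with 52.1, 59.8 and 17.2 CPM per kb, and Col7a1 was the highest in OSalive and OSapop, with 31.3 and 35.6. In LOS the first place was held by Col3a1, at 121.5 CPM per kb.

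Col18a1 reached 126.1 CPM in LOS (limits 119.4 to 132.97), 291.8 in MOS (280.4 to 303), 335 in UOS (330.2 to 339), 96.1 in P17f (91.1 to 101.4), 143.5 in OSalive (142.1 to 144.9) and 171.4 in OSapop (168.4 to 174.4). It was detected in every UOS cell and in 64.9% of P17f cells, the lowest share. No cell held more than 19.5% of its counts in any sort. The P17f plates were uneven, with 161.9 CPM on pl1, 11.5 on pl2, 34.9 on pl5 and 153.8 on pl6. Without set-apart cells LOS stood at 162.4 CPM, still below UOS at 339.8.

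Col7a1 was near the bottom of the range in LOS and high in the CatVII sorts. Its level was 3.73 CPM in LOS (2.67 to 5.08), 90.4 in MOS (84.1 to 96.96), 230.9 in UOS (227.3 to 234.5), 30.03 in P17f (27.2 to 33.04), 289.4 in OSalive (287.4 to 291.4) and 329 in OSapop (325 to 333). It was detected in all but 1 of the OSalive cells and in 91 of 92 OSapop cells, but in 7 of 39 LOS cells. With every cell thinned to 50000 counts, which leaves out 16 LOS cells and at most 7 cells of another sort, the share of cells was 13.04% in LOS (2.78 to 33.6), 59.4% in MOS, 85.6% in UOS, 18.9% in P17f, 97.6% in OSalive and 98.8% in OSapop. One P17f cell, well D11 of pl2, held 73.8% of the P17f counts, and the plates ranged from 1.33 CPM on pl5 to 145.3 on pl2. The set-apart cells changed little of this, since without them LOS was at 4.64 CPM and UOS at 246.3.

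Col4a1 and Col4a2 encode the chains of the general basement membrane network. Col4a2 was at 209.7 CPM in LOS, 248.005 in MOS, 173.3 in UOS, 61.5 in P17f, 82.8 in OSalive and 91.7 in OSapop. Col4a1 followed at 148.3, 102.5, 112.3, 25.3, 34.99 and 40.2 CPM in the same order. All AnaVI sorts were above all later sorts for both genes. In LOS, well A11 held 58.2% of the Col4a1 counts and 60.3% of the Col4a2 counts, beside its 26.9% of all counts. Rgs5 and Pdgfrb, genes typical of pericytes, were at 775 and 373 CPM in that cell, and their part in the LOS level was not tested. Without set-apart cells the LOS levels were 73.1 CPM for Col4a1 and 101.8 CPM for Col4a2.

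The other type IV chains were lower. Col4a5 ranged from 14.98 CPM in P17f to 33.8 in UOS and Col4a6 from 5.79 in LOS to 16.4 in UOS. Without set-apart cells LOS was at 28.9 CPM for Col4a5, 9.29 for Col4a6 and 14.1 for Col4a4. Col4a4 was at 41.7 CPM in MOS, 23.6 in OSalive, 19.4 in UOS, 14.2 in OSapop, 8.30 in LOS and 0.355 in P17f. Of the MOS counts, 42.7% came from 1 cell. Col4a4 was found in 72 UOS cells (64.3%) but in 35 OSalive cells, although OSalive had more cells and more counts per cell. Its partner Col4a3 was rarer, in 62 of the 463 cells. It was at 30.4 CPM in MOS, 23.8 in OSalive and 6.79 in UOS. Without the leading cell of each sort these levels were 19.9, 17.97 and 5.47 CPM. OSalive, the sort with the most counts of all genes, held 6839 of its 7897 counts, in 20 cells.

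Heterotrimer partners were then compared within cells. Col4a1 and Col4a2 were detected together in 339 of 463 cells, Col4a2 alone in 53 and Col4a1 alone in 12, with 0.494 Col4a1 counts for each Col4a2 count. For Col4a3 and Col4a4, 47 cells had both and 15 had Col4a3 alone, and 31.3% of the cells with Col4a4 also had Col4a3. Col4a5 and Col4a6 were found together in 27.6% of cells, and 67.02% of the cells with Col4a6 also had Col4a5. A chain at a low level can be missed in a cell at these depths, so a partner that was not seen is not shown to be absent.

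The fibril-associated collagens (FACITs) sit on the surface of other fibrils. Col12a1 was at 119.7 CPM in LOS, 280.9 in MOS, 182.6 in UOS, 89.4 in P17f, 63.2 in OSalive and 125.7 in OSapop, and was detected in at least 40.4% of the cells of every sort. Col16a1 was at 44.4, 90.7, 81.5, 56.4, 35.2 and 39.8 CPM in the same order. Without set-apart cells LOS was at 197.5 CPM for Col12a1 and 71.7 for Col16a1. Both were higher in MOS than in LOS and OSalive, with and without those cells. Col20a1 stayed between 1.34 and 2.41 CPM in every sort.

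Col14a1, a FACIT common in dermal connective tissue, had another pattern. Its level was 39.7 CPM in LOS, 0.351 in MOS, 3.45 in UOS, 81.4 in P17f, 9.94 in OSalive and 2.52 in OSapop. In LOS, UOS and OSalive, 54.1%, 77.97% and 54.7% of its counts sat in 1 cell with 5 or more fibroblast markers. In P17f, 16 of 57 cells carried it, the leading cell held 28.01%, and no cell of the sort had 3 fibroblast markers. The P17f plates gave 156.6 CPM on pl1, 6.62 on pl2, 55.4 on pl5 and 12.5 on pl6. Without set-apart cells P17f stood at 82.7 CPM against 3.27 in LOS, 0.543 in UOS and 4.23 in OSalive.

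The short-chain collagen genes Col8a1 and Col8a2, whose products form networks beneath endothelia and epithelia, differed in their sorts. Col8a2 was at 0 CPM in LOS, 9.71 in MOS (7.74 to 12.04), 12.96 in UOS (12.1 to 13.9), 10.1 in P17f (8.49 to 11.9), 57.8 in OSalive (56.9 to 58.6) and 82.1 in OSapop (80.02 to 84.2). It was detected in all but 20 of the OSalive cells (limits of the share 76.4% to 89.9%) and in 78.3% of OSapop cells, against 40.2% in UOS, 21.1% in MOS and 17.5% in P17f. In LOS it was found in 0 of 39 cells, which allows a share of up to 7.69%. At 50000 counts per cell the shares were 62.9% in OSalive (53.8 to 71.4), 70.6% in OSapop (59.7 to 79.98) and 23.4% in UOS (15.9 to 32.4). Counts were spread, with at most 11.04% in 1 cell in the CatVII sorts. Col8a1 was at 12.9 CPM in LOS, 17.2 in MOS, 3.98 in UOS, 1.78 in P17f, 2.50 in OSalive and 1.41 in OSapop. Both genes were found together in 35 cells and Col8a1 alone in 43, and 14.6% of the cells with Col8a2 also had Col8a1. In OSalive 19 of 21 and in OSapop 9 of 10 cells with Col8a1 also had Col8a2, against 2 of 15 such cells in MOS.

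**Figure D2:**
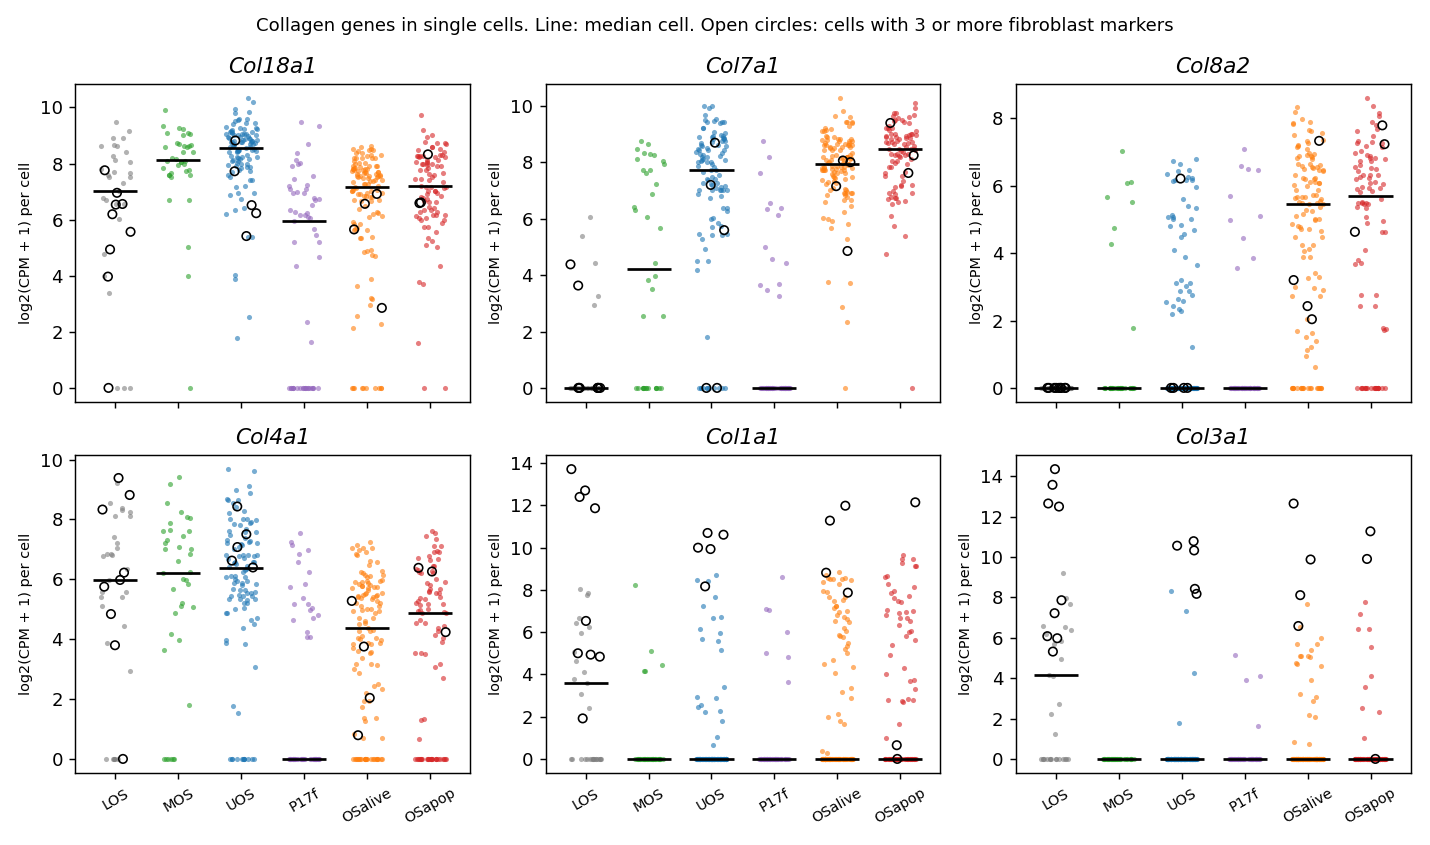
Level of 6 members in single cells (log2 of CPM + 1) by sort, with a line at the median cell and open circles for cells with 3 or more fibroblast markers. Col18a1 and Col7a1 form bands over many cells, Col7a1 and Col8a2 are mostly at 0 in LOS, and the highest Col1a1 and Col3a1 values belong to open circles.

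Type VI collagen forms beaded filaments from 3 different chains. Col6a1 was at 42.6 CPM in LOS, 3.04 in MOS, 35.3 in UOS, 0.0710 in P17f, 49.99 in OSalive and 40.1 in OSapop. Col6a2 was at 37.3, 23.9, 36.5, 0.213, 77.3 and 59.8 CPM in that order. P17f held 1 count of Col6a1 and 3 counts of Col6a2. Without set-apart cells LOS was at 3.61 CPM for Col6a1 and 6.19 for Col6a2, below UOS at 37.3 and 37.2. The third chain, Col6a3, was at 57.2 CPM in LOS, 0 in MOS, 7.61 in UOS, 8.95 in P17f, 5.54 in OSalive and 0.986 in OSapop, and 97.49% of the OSalive counts sat in well B11, a cell with 11 of 12 fibroblast markers. Without set-apart cells Col6a3 was at most 0.911 CPM in every sort but P17f, where it was 9.46 and 82.5% of all its counts came from 1 cell of pl5. Of the cells with Col6a1, 86.5% also had Col6a2, while Col6a1 and Col6a3 shared 23 cells, 14.8% of those with Col6a1.

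Type V collagen sets the diameter of type I fibrils. Col5a2 was at 25.1 CPM in LOS, 35.6 in MOS, 52.6 in UOS, 6.32 in P17f, 25.5 in OSalive and 32.9 in OSapop. It was found in 88.4% of UOS cells and 74.4% of OSalive cells, and no cell held more than 7.12% of the counts in UOS, OSalive or OSapop. Col5a1 was at 64.7, 23.3, 36.3, 5.82, 23.8 and 18.3 CPM in the same order, and in LOS 43.3% of its counts were in 1 cell. Without set-apart cells LOS was at 24.9 CPM for Col5a1, below UOS at 29.9, and at 10.8 for Col5a2. Both chains were detected in 37.1% of all cells, and Col5a1 alone in 46 cells.

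The interstitial genes Col1a1, Col1a2 and Col3a1 held 57.95% of the collagen counts in LOS, 19.7% in UOS, 15.8% in OSalive, 14.4% in OSapop, 2.93% in P17f and 0.841% in MOS. Col3a1 was at 676 CPM in LOS (660.4 to 692), 0 in MOS, 130.99 in UOS (128.3 to 133.7), 0.710 in P17f (0.340 to 1.31), 65.5 in OSalive (64.5 to 66.4) and 20.96 in OSapop (19.9 to 22.03). It was detected in 0 of 38 MOS cells, which allows a share of up to 7.89%. Without set-apart cells it was at 20.3 CPM in LOS, 7.17 in UOS, 3.91 in OSalive, 5.28 in OSapop and 0.751 in P17f. The LOS, UOS, OSalive and OSapop levels were all lower without those cells, and LOS remained the highest.

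Col1a1 was at 442 CPM in LOS, 10.7 in MOS, 137.7 in UOS, 13.2 in P17f, 91.6 in OSalive and 136.3 in OSapop. Without set-apart cells the levels were 22.7, 10.7, 20.3, 13.3, 48.7 and 131.2 CPM in the same order, so that LOS was no longer first and OSapop was. Col1a2, whose chain joins 2 Col1a1 chains in type I collagen, was at 231.6, 0.585, 73.9, 1.49, 27.9 and 26.8 CPM, and at 9.98, 0.588, 12.3, 1.58, 13.3 and 20.7 without those cells. The count ratio of Col1a1 to Col1a2 was 1.91 in LOS, 18.2 in MOS, 1.86 in UOS, 8.86 in P17f, 3.28 in OSalive and 5.08 in OSapop, with 5 Col1a2 counts in MOS.

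Cells with Col1a1 at 50 CPM or more were then divided by Col3a1. In OSapop, 23 of 29 such cells had no Col3a1 count, all 23 had Krt5, a basal keratinocyte keratin, 2 had Dcn and none had 3 fibroblast markers. These 23 cells held 70.9% of the OSapop Col1a1 counts. In OSalive, 20 of 35 such cells lacked Col3a1, all with Krt5 and none with Dcn, and they held 39.4% of the counts. In UOS 7 of 14 and in LOS 1 of 12 did so, with 5.58% and 0.232% of the counts. In MOS the only such cell and in P17f 3 of 4 did so, with 72.5% and 41.9% of the counts, so such cells were found in every sort. Over all 463 cells, Col3a1 without Col1a1 was seen in 16 and both in 58, and 36.5% of the cells with Col1a1 had Col3a1.

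**Figure D3:**
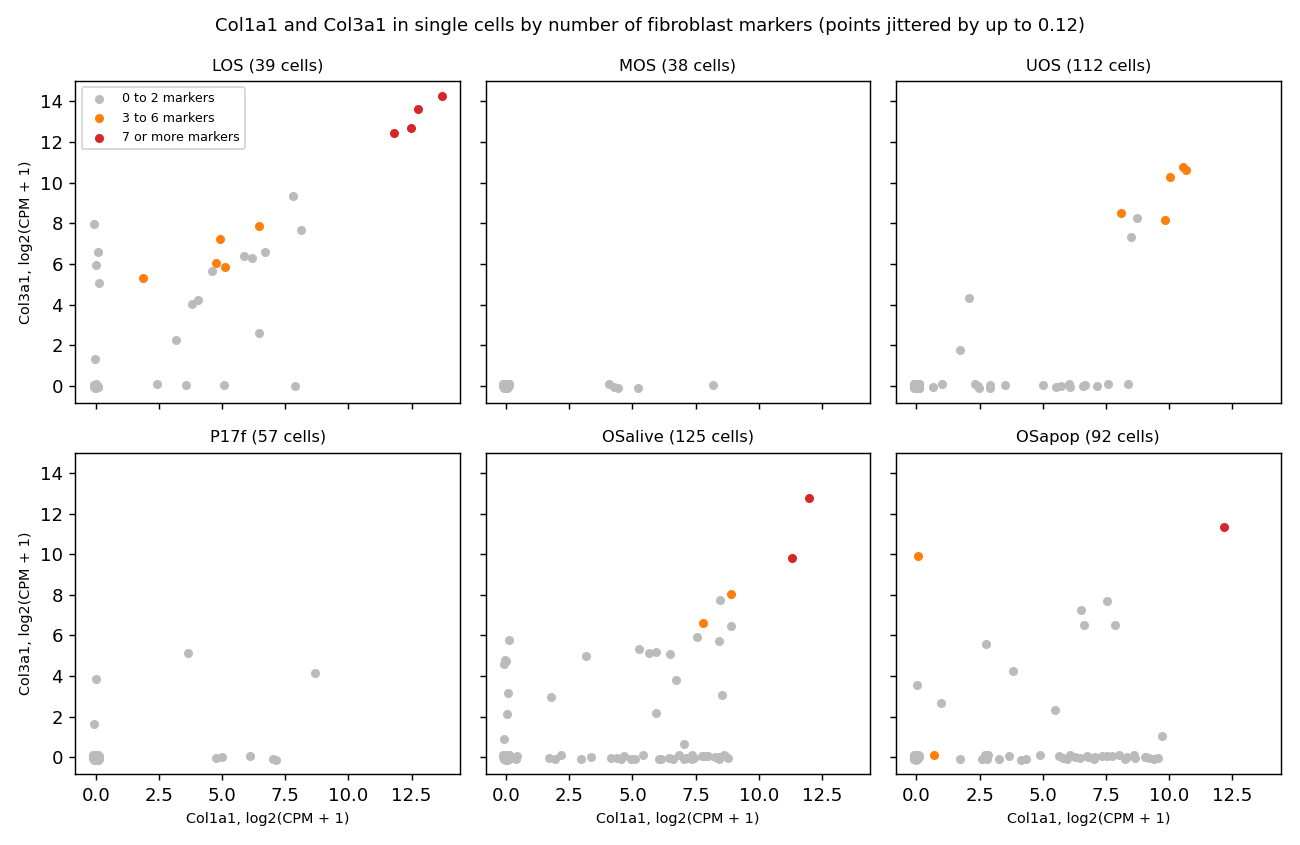
Col1a1 (x axis) against Col3a1 (y axis) in single cells of each sort, as log2 of CPM + 1, coloured by the number of fibroblast markers at 10 CPM. Cells with 7 or more markers lie at the top right in LOS, OSalive and OSapop, and a row of OSalive and OSapop cells with 0 to 2 markers has Col1a1 without Col3a1.

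The share of a gene held by a single cell was compared with that of all genes. In LOS 7 of 16 members with at least 100 counts had over 50% of them in 1 cell, beside 16.3% of all genes with 100 counts. They were Col1a1, Col1a2, Col3a1 and Col14a1 in well D10, Col4a1 and Col4a2 in well A11 and Col4a5 in well C2. D10 carried 10 fibroblast markers, no Krt5, Dcn at 1132 CPM and Col3a1 at 21003 CPM, and held 2.17% of all LOS counts. In UOS 6 of 24 members met the same limit, beside 2.44% of all genes. Col1a1, Col1a2, Col3a1, Col14a1 and Col15a1 were in well E11, with 13735 detected genes, 5 fibroblast and 5 endothelial markers, and Col5a3 was in well G1.

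In OSalive 7 of 26 members had over 50% in 1 cell, beside 7.74% of all genes. Col3a1, Col5a3, Col6a3, Col6a6 and Col14a1 were in well B11, which had 11 fibroblast markers, Col3a1 at 6445 CPM and also Krt5 at 1500 CPM. Col9a3 and Col10a1, typical of cartilage, were each in another cell with 1 fibroblast marker. In OSapop 5 of 22 members did so, beside 5.31% of all genes, in 5 different cells, and the cell that led for Col15a1 was the only one of them with 3 or more fibroblast markers. The others were Col3a1-negative cells that led for Col5a3, Col14a1, Col4a4 and Col4a3. In MOS 2 of 13 (Col6a2 and Col5a1, beside 6.13% of all genes) and in P17f 3 of 12 (Col1a1, Col6a3 and Col7a1, beside 2.95%) met the limit, in cells with at most 2 fibroblast markers. Without cells of 3 or more fibroblast markers the 30 cases over all sorts became 15.

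**Figure D4:**
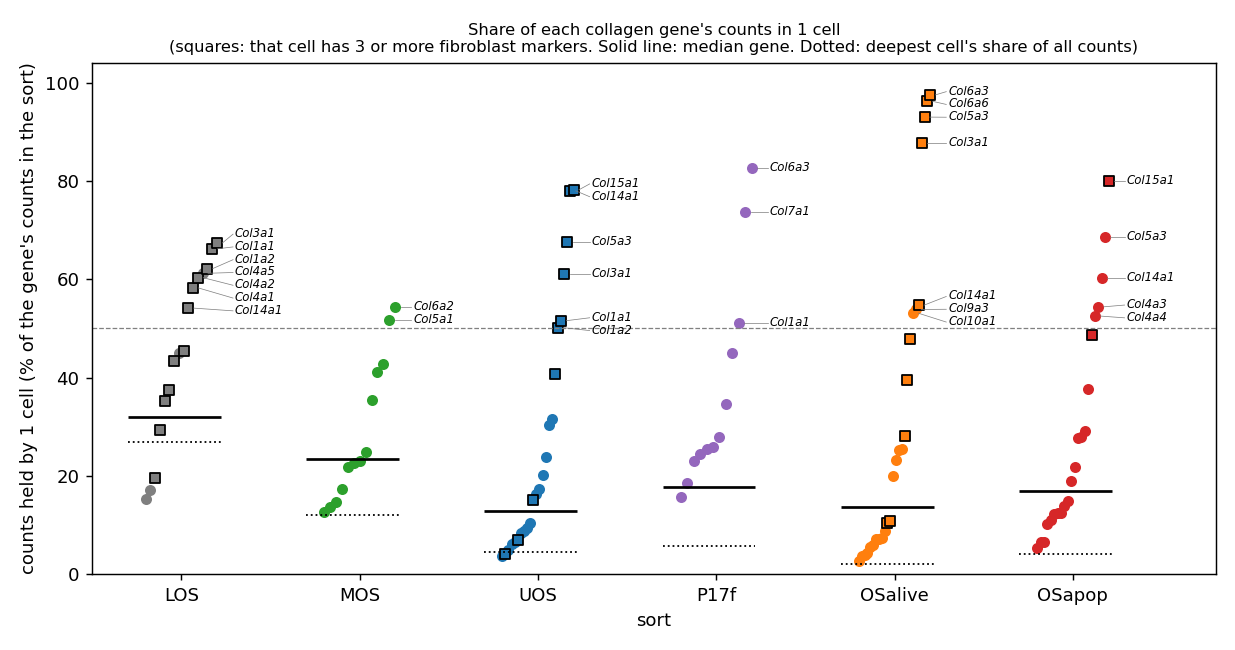
Largest share of a member's counts held by 1 cell (y axis, percent) in each sort, for members with at least 100 counts there. Squares mark leading cells with 3 or more fibroblast markers, the solid line is the median of all genes, and the highest points are Col6a3 and Col6a6 in OSalive.

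In the AnaVI sorts, MOS was compared with UOS. Of 24 members with 100 counts, 3 were higher in MOS (6.56% of all genes were) and 10 lower (23.2% of all genes). The median member was at -0.59 on the log2 scale, and the median gene at -0.31. Col8a1 was higher in MOS by a log2 ratio of 2.11 (1.81 to 2.41). Col7a1 was lower, at -1.35 (-1.46 to -1.25), and Col6a1 at -3.54 (-4.15 to -2.98). Col3a1, with 0 counts in MOS and 8952 in UOS, was at least 373-fold lower. This bound, -8.54 on the log2 scale, was -7.24 without the leading cell of UOS and -4.35 without set-apart cells. Col4a3 and Col4a4 were the other higher members, and Col1a1, Col1a2, Col4a6, Col5a3, Col6a3, Col14a1 and Col15a1 the other lower ones. Without set-apart cells 2 members were higher and 5 lower, beside 7.48% and 20.6% of all genes.

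LOS against UOS gave 7 higher and 7 lower of 24 members, beside 14.1% and 14.3% of all genes. Col7a1 was lower in LOS by -5.95 (-6.44 to -5.50), 61.9-fold, Col8a2 was at least 46.3-fold lower, and Col18a1 was at -1.41 (-1.49 to -1.33). Higher in LOS were Col14a1, at 3.52 (3.29 to 3.76), Col6a3, at 2.91, Col3a1, at 2.37, Col8a1, at 1.69, Col1a1, at 1.68, Col1a2, at 1.65, and Col5a3. After thinning to 50000 counts per cell the Col8a1 ratio was 0.34, from 5 LOS and 19 UOS counts. The other lower members were Col4a3, Col4a4, Col4a6 and Col5a2. Other scalings gave 7 higher and 8 lower (median-of-ratios factors, 12.8% and 15.8% of all genes) and 6 and 9 (TMM, 8.72% and 21.9%). Without set-apart cells 2 were higher and 8 lower, beside 12.4% and 18.6% of all genes. Col6a3 and Col1a2 then turned to -0.0837 and -0.30, the first on 5 LOS and 52 UOS counts. Col7a1, Col8a2, Col18a1, Col8a1 and Col3a1 kept their calls under these scalings and protein-coding totals. They also kept them without set-apart cells, fibroblast-marker cells, cells of over 10000 genes or the leading cell of each gene, left out in turn. Col14a1 did so too, except without set-apart cells, where 19 LOS and 31 UOS counts were too few for a call. The Col14a1 ratio itself stayed past 2-fold.

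Between CatVII and AnaVI, OSalive against UOS gave 5 higher and 12 lower of 29 members, beside 11.5% and 26.6% of all genes. The median gene was at -0.32 and the median member at -0.61. Col8a2 was higher by 2.16 (2.06 to 2.25), 4.46-fold, Col14a1 by 1.52 (1.33 to 1.72) and Col6a2 by 1.08 (1.02 to 1.14). Col4a3 and Col9a3 completed the list, each from at most 20 OSalive cells. Col4a1 was lower, at -1.68 (-1.73 to -1.64), and Col12a1, at -1.53 (-1.56 to -1.50). Col18a1, Col4a2, Col4a5, Col5a2, Col16a1, Col1a2 and Col3a1 lay between the lower limit and -1.40, and the rare Col15a1, Col23a1 and Col5a3 at -3.44, -1.86 and -1.45. The split followed the scaling, since median-of-ratios factors, TMM factors and protein-coding totals moved every ratio up by 0.43, 0.46 and 0.34 and gave 6 higher and 5 lower, 6 and 4, and 6 and 6. The shares over all genes were then 18.02% and 17.8%, 18.7% and 17.3%, and 16.3% and 19.2%, so that these counts are near the background. Col8a2, Col14a1, Col4a1 and Col12a1 kept their calls under these scalings and with the same cells left out in turn. Without set-apart cells alone the split was 5 and 7, beside 12.3% and 24.3%.

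P17f against UOS gave 2 higher and 18 lower of 25 members, beside 12.9% and 24.9% of all genes. The median member was at -1.80 and the median gene at -0.18. Col14a1 was higher by 4.56 (4.36 to 4.77), and Col10a1, from 46 counts in 5 cells, by 1.55. The lowest were Col6a1, at -8.96 from 1 count (-14.3 to -6.48), Col3a1, at -7.53, and Col6a2, at -7.42. Col7a1 was at -2.94, Col4a1 at -2.15, Col18a1 at -1.80 and Col4a2 at -1.49. On plate pl2 alone Col14a1 was at 0.94 and Col7a1 at -0.67, neither past 2-fold. Each plate alone gave between 15 and 19 lower members, beside 32.1% to 39.02% of all genes. Without set-apart cells 2 were higher and 16 lower, beside 13.7% and 24.2% of all genes.

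Within CatVII, OSapop against OSalive gave 2 higher and 5 lower of 28 members, beside 10.6% and 11.3% of all genes. The median member was at -0.07 and the median gene at 0.12. Col14a1 was lower in OSapop, at -1.98 (-2.20 to -1.76), but the ratio was -1.11 without set-apart cells and, no longer past 2-fold, -0.37 with mean cell CPM and -0.29 after thinning. Col3a1, at -1.64, and Col6a3, at -2.49, turned to 0.44 and 2.76 without set-apart cells. Col4a3 and Col11a2 were the other lower members, and Col15a1 and Col5a3, each with over 50% of its OSapop counts in 1 cell, the higher ones. Col7a1, Col18a1, Col8a2, Col4a1, Col4a2 and Col1a1 did not pass 2-fold with all cells and total counts. The Col1a1 ratio was 0.57 there and ran from 0.28 to 1.44 over the alternatives. By the levels given above, it was past 2-fold higher in OSapop without set-apart cells. Other scalings gave 1 higher and 5 lower (median-of-ratios factors, 8.32% and 13.3% of all genes, and protein-coding totals, 8.36% and 13.3%) and 1 and 7 (TMM, 7.13% and 14.8%). Without set-apart cells 2 were higher and 4 lower, beside 10.3% and 11.02%.

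**Figure D5:**
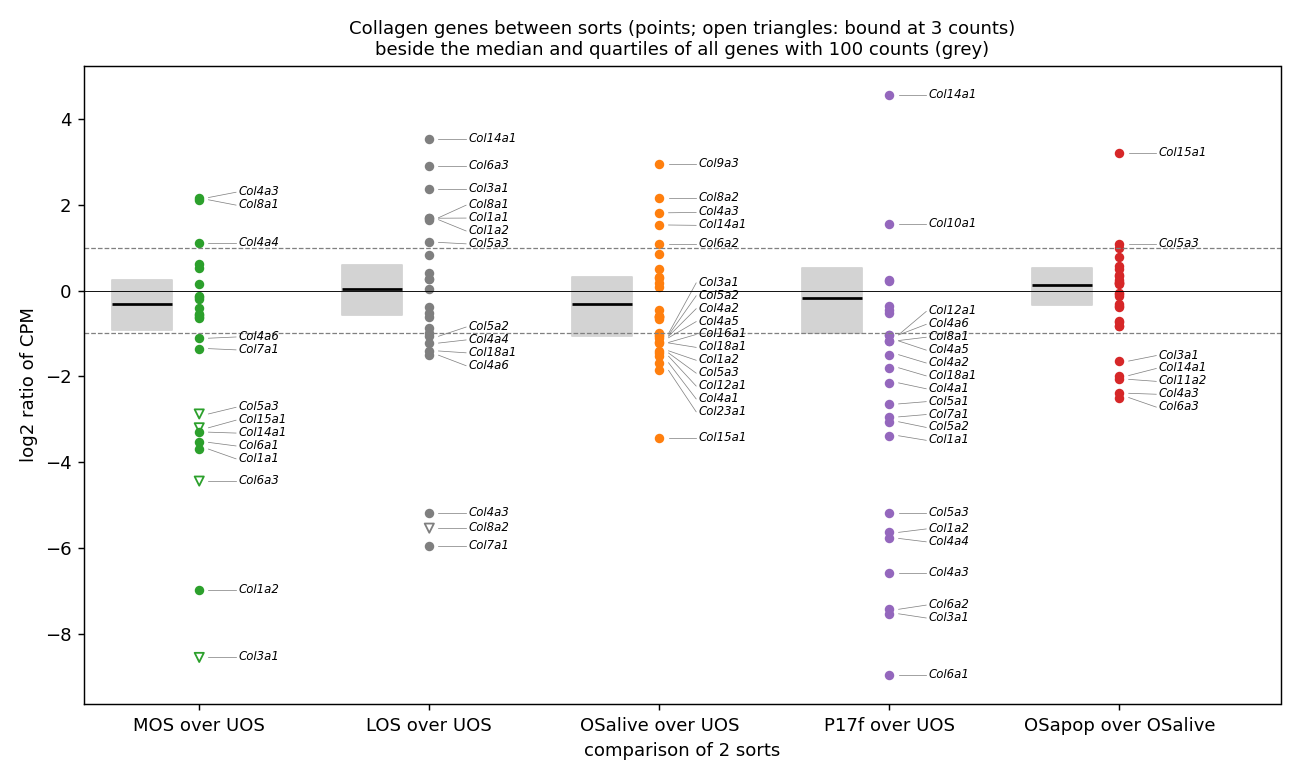
Log2 ratio of CPM for collagen genes with at least 100 counts over both sorts in 5 comparisons, with dashed lines at 2-fold and grey boxes for the median and quartiles of all genes. Col7a1 and Col8a2 lie far below in LOS over UOS, Col8a2 and Col14a1 lie above in OSalive over UOS, and 18 of 25 members lie below the lower line in P17f over UOS.

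Further lists of the collagen pathway are read against the shares of all genes, which were 11.5% higher and 26.6% lower in OSalive over UOS, 12.9% and 24.9% in P17f over UOS and 10.6% and 11.3% in OSapop over OSalive. Ratios of these lists use total counts, and TMM factors raise every OSalive over UOS ratio by 0.46. The lower calls of P3h1, Tll1 and Itga1 given below are then no longer past 2-fold. Ddr1, within 2-fold on total counts, then passes 2-fold on the higher side. Genes of collagen folding and secretion, among them enzymes of the endoplasmic reticulum, made up a list of 20 genes. In OSalive over UOS, 2 of 19 were higher and 4 lower with a median of -0.06, beside the median gene at -0.32, and in P17f over UOS 1 of 17 was higher and 7 lower. P4hb, the shared subunit of prolyl 4-hydroxylase, was at 86.6 CPM in LOS, 80.4 in MOS, 94.96 in UOS, 56.9 in P17f, 65.4 in OSalive and 67.4 in OSapop. P3h2, a prolyl 3-hydroxylase known to act on type IV collagen, was at 16.98, 24.2, 78.04, 20.2, 45.2 and 50.1 CPM. Crtap, the partner of P3h1, ranged from 6.96 to 24.98 CPM. Ppib, a proline isomerase, was at 33.96 CPM in UOS and 3.69 in OSalive, a log2 ratio of -3.20 (-3.31 to -3.10). P4ha2, Plod2 and P3h1 were lower in OSalive at -2.92, -2.83 and -1.33, with 52.2% and 69.8% of the UOS counts of P4ha2 and Plod2 in 1 cell, and P3h3 and Colgalt2 higher at 1.18 and 1.15.

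Of the 14 genes for processing and crosslinking, 13 were counted in OSalive over UOS, with 3 higher and 4 lower, beside 11.5% and 26.6% of all genes, and a median of -0.38. In OSapop over OSalive 12 were counted, with 0 higher and 5 lower, beside 10.6% and 11.3%. Pxdn, which makes the sulfilimine bonds of type IV collagen, was at 101.8 CPM in LOS, 146.9 in MOS, 58.2 in UOS, 113.96 in P17f, 18.4 in OSalive and 23.2 in OSapop. Bmp1, a procollagen C-proteinase, was at 45.1, 57.2, 36.7, 50.9, 11.4 and 15.7 CPM. Their log2 ratios in OSalive over UOS were -1.66 and -1.68. Adamts3 and Tll1 were also lower, at -3.44 and -1.40, and Adamts14, Loxl3 and Loxl4 were higher, all at levels of 1.83 CPM or less in OSalive. Of these low counts, 1 cell held 45.1%, 54.1% and 77.1% in OSalive. Pcolce, an enhancer of Bmp1, was at 22.6 CPM in LOS and at most 2.69 CPM elsewhere. In LOS it was found in 15.4% of cells, and 1 cell held 67.4% of its counts.

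Of 10 receptors, 7 were counted in OSalive over UOS, with 1 higher and 2 lower, beside 11.5% and 26.6% of all genes, and a median of -0.49. Ddr1, the epithelial collagen receptor kinase, was at 42.6 CPM in LOS, 115.6 in MOS, 139.3 in UOS, 130.7 in P17f, 205.4 in OSalive and 220.3 in OSapop. Itgb1 lay between 44.8 and 65.2 CPM in every sort. Itga2 was higher in OSalive than in UOS at 1.20, and Itga1, at -1.44, and Mrc2, at -1.87, were lower, the last with 93.8% of its OSalive counts in 1 cell. Of 13 breakdown genes 5 were counted, with 1 higher and 1 lower, beside the same shares, and a median of 0.21. Timp3, a matrix-bound inhibitor of metalloproteinases, was at 294.9 CPM in LOS, 400.4 in MOS, 127.3 in UOS, 57.6 in P17f, 7.37 in OSalive and 22.7 in OSapop, and its ratio was -4.11 (-4.18 to -4.04). Mmp15 was higher at 1.17, while Mmp2, Timp2 and Mmp14 stayed within 2-fold.

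Among 12 basement membrane partners 0 were higher and 2 lower in OSalive over UOS, beside 11.5% and 26.6% of all genes, with a median of -0.11. Agrn, a heparan sulfate proteoglycan, was at 260.3 CPM in LOS and between 416 and 486 CPM in the other sorts. Tgfbi was at 12.7 CPM in LOS, 77.5 in MOS, 154.04 in UOS, 30.7 in P17f, 191.5 in OSalive and 231.6 in OSapop, the same order of sorts as Col7a1. Sparc was at 236.3, 69.3, 158.9, 15.3, 120.9 and 111.9 CPM, with 45.02% of its LOS counts in 1 cell. Lamb1 was lower at -1.49. Frem1 was lower too, with 0 counts in OSalive, but 90.4% of its UOS counts were in 1 cell.

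The remaining 22 members were found in under 20% of the cells of every sort. One of them was Col4a3, described above, with 7897 counts in 62 cells. Those under 100 counts over all sorts were 14 genes, namely Col9a1 with 1 count, Col28a1 with 2, Col19a1 with 6, Col13a1 with 9, Col6a4 with 10, Col22a1 with 13, Col25a1 and Col26a1 with 20 each, Col2a1 with 26, Col24a1 with 30, Col9a2 with 32, Col6a5 with 61, Col27a1 with 76 and Col11a1 with 94. The cartilage genes Col2a1, Col9a1, Col9a2 and Col11a1 are among them. Col11a2, Col23a1, Col9a3, Col10a1, Col6a6, Col15a1 and Col5a3 had up to 653 counts each. Col15a1, a relative of Col18a1, had 220 counts in 6 UOS cells, 78.2% of them in 1 cell, and 200 counts in 5 OSapop cells.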

How the data were processed

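Smart-seq2 libraries of single cells sorted from wild-type mouse skin were analysed. The authors trimmed the reads, aligned them with STAR 2.6 to mm39, quantified them with Salmon 1.4.0 and deposited estimated counts per gene in R 3.6.1, unnormalized and with fractional values. Strand use in counting is not given in the sources used here. Here the estimated counts were rounded to whole numbers, spike-in rows were removed and cells with fewer than 2000 detected genes were left out, as in the study. One cell with conflicting labels entered no sort. Genes were matched to GENCODE on GRCm39, the same build as mm39, and 93.35% of the genes had a symbol. The unnamed top gene alone held 65.53% of all counts and genes without a symbol 79.15%, so a CPM here is relative to a total that such genes dominate.

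Counts were summed per sort and scaled to 1000000 (CPM). Poisson, Clopper-Pearson and ratio limits are exact at 95%. They reflect counting alone, because PCR copies of one molecule cannot be recognised without identifiers. A count of 0 was set to 3 in a ratio, which then is a bound. With 1 sample per sort no test was run. Total counts ran from 8544186 in MOS to 287377663 in OSalive.

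Values by sort are given for members detected in at least 20% of the passing cells of a sort and with 100 counts over all sorts, other members by counts, and of each further list the 3 genes of highest CPM per kb and those past 2-fold in OSalive over UOS. Members and lists were chosen with earlier results of these data known. Alternatives comprised median-of-ratios factors, TMM factors (edgeR 4.0.16, R 4.3.3), protein-coding totals, mean cell CPM, other gene and count minimums, thinning, single plates, and leaving out cells with fibroblast markers. Those leaving out set-apart cells or cells with over 10000 genes, counting C6 and C7 once, and ignoring Fbln1 as a marker were chosen after seeing the data. The ratio step was tested on simulated data. Tables were made with pandas 2.3.3 and numpy 2.4.6 under Python 3.11.15, limits with scipy 1.17.1 and plots with matplotlib 3.10.9.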

Additional observations from a re-analysis of the deposited data

How the results depend on the processing

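The number of collagen genes past 2-fold depended on the cells and genes admitted. For MOS over UOS it was 13, and became 8 after thinning to 50000 counts, 8 without fibroblast-marker cells, also when Fbln1 was ignored, 7 without cells carrying markers of any other type, and 22 at a minimum of 1 count. For LOS over UOS it was 14, and 23 at 1 count. For OSalive over UOS it was 17, and 11 with median-of-ratios factors, 10 with TMM factors and 9 after thinning. For OSapop over OSalive it was 7, with 1 after thinning and 11 at 1 count. For P17f over UOS it was 20, and between 16 and 28 under every alternative. The 30 cases of over 50% of counts in 1 cell became 15 without fibroblast-marker cells, 15 without cells with markers of any other type, 18 when Fbln1 was ignored, 5 after thinning and 5 at a share over 80%. Thinning leaves fewer counts and so fewer genes at 100 counts. For other changes the cause was not tested.

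Of single log2 ratios, 918 alternatives stayed within the counting limits, 638 moved and 19 reversed. In MOS over UOS, Col14a1 went from -3.30 to 0.0162 with mean cell CPM and 0.38 after thinning. In LOS over UOS, Col5a2 went from -1.07 to 0.0469 after thinning. Without cells with markers of another type Col1a2 went there from 1.65 to -0.30 and Col6a3, on 5 LOS and 52 UOS counts, from 2.91 to -0.0837. In OSalive over UOS, Col3a1 went from just past the lower limit to 0.42 with mean cell CPM, 0.38 after thinning and 0.26 without cells of over 10000 genes. There Col1a2 went from -1.40 to 0.21 without fibroblast-marker cells, 0.11 without cells with markers of another type and 0.22 when Fbln1 was ignored. In OSapop over OSalive, Col3a1 went from -1.64 to 0.42 without its leading cell, 0.45, 0.44 and 0.25 under the same 3 cell rules, and Col6a3 from -2.49 to 1.64, 2.77, 2.76 and 2.74. No paired analysis was possible because each sort is 1 sample and its cells carry no shared replicate numbers.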
